A study of Mus musculus with 8 samples.

Results

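The genes described here are 42 type I interferon-stimulated genes, chosen by symbol from the 45706 genes of the deposited tables, and all 42 symbols were found. They were measured by bulk RNA sequencing of natural killer (NK) cells, innate lymphocytes that kill cells lacking MHC class I. The cells came from BALB/c mice that had received CT26 colorectal carcinoma cells under the skin, the carcinoma cells lacking β2-microglobulin (CT26_β2m-/-) and with it surface MHC class I. Of the 8 libraries, 4 are titled spNK and 4 tuNK, and the study set out to compare NK cells of spleen and tumour. In all 8 the tissue tag and source name go against the title: libraries titled spNK are tagged as CT26_b2m-/- tumour and those titled tuNK as spleen. Summed markers, averaged over the 4 libraries of spNK and of tuNK, were 471 and 1.41 CPM for erythroid cells, 410.0 and 6.42 CPM for platelets, 18.2 and 1.14 CPM for B cells, and 3.97 and 55.4 CPM for epithelial tumour cells. The epithelial sum of tuNK rested on Krt18, Cdh17 and Krt20 (31.2, 11.8 and 9.41 CPM). The other 5 of its 8 markers averaged under 1 CPM there, among them Cdh1, which was lower than in spNK (0.729 against 1.71 CPM). Groups follow the titles, so every "higher in tuNK" means higher in the libraries titled tuNK. The labels name no treatment beyond the tumour and give neither the age and sex of the mice nor the sort markers or the number of carcinoma clones. They do not say that the replicates are separate mice. The p-values thus cover the spread among these libraries, which may be technical.

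Type I interferons bind a receptor made of IFNAR1 and IFNAR2, whose kinases JAK1 and TYK2 phosphorylate STAT proteins. With IRF9, STAT2 enters the factor ISGF3, which binds interferon-stimulated response elements (ISREs) and induces antiviral genes. In NK cells the same pathway is known to promote cytotoxicity and cytokine production.

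Library totals ran from 38745733 to 53886933 estimated counts. Levels are given as CPM (counts per 1000000), scaled with TMM factors, and fold changes as log2 of tuNK over spNK ± standard error. A gene was called at an adjusted p under 0.05 in the edgeR quasi-likelihood test, fitted over 14006 genes with Benjamini-Hochberg adjustment. The NK markers summed to between 11548 and 16302 CPM in spNK and between 3769 and 5313 CPM in tuNK, and none of the 10 was under 1 CPM on average in either group. Mesenchymal markers, which fibroblasts and cultured carcinoma cells can express, summed to between 92.2 and 149 CPM in spNK and between 3220 and 4843 CPM in tuNK, highest in tuNK 1, with 13 of 13 tested called higher. Genes expressed across leukocytes stood in tuNK at 30.9% of their spNK level, with 32 of 32 called lower. Fold changes are therefore also given after scaling to those 32 genes, called leukocyte-scaled, which moved the median of all genes tested from 0.0187 to 1.7165. In bulk samples, fewer cells of a type and less RNA per cell cannot be told apart.

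The interferon-stimulated genes did not move as a block. Of the 41 members that passed the filter on low counts, 18 (43.9%) were called higher in tuNK, where 35.6% of all genes tested were called higher. A further 8 (19.5%) were called lower, against 34.0% of all genes, and 15 were not called. In either direction 69.6% of all genes were called. Without any test, 18 of all 42 members, the untested Mx2 among them, had all tuNK libraries above all spNK libraries (34.4% of all genes tested did). Another 8 had them all below (32.6% did). The median log2 fold change of the 41 members tested was 0.42 beside 0.0187 for all genes tested, and the leukocyte-scaled medians were 2.14 and 1.7165. The median rested partly on single libraries, since it was 0.18 without tuNK 1 and 0.64 without tuNK 3. Changes past a log2 fold of 1 were more common upwards: 17 members (41.5%) were called with a log2 fold change above 1, against 21.9% of all genes. Only 3 (7.32%) were called below -1, against 19.3%. By role, all 5 OAS genes and all 4 genes of the IFITM and tetherin group were called higher, as were 2 of 3 IFIT genes. Ifit2 was called lower. Both receptor chains, Irf9, Parp14, Dtx3l, Trim30a and Sp100 were the other members called lower. After leukocyte scaling 40 of 41 members (97.6%) were called higher, where 78.4% of all genes were, and 0 were lower, where 6.27% were (84.7% in either direction).

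**Figure D1:**
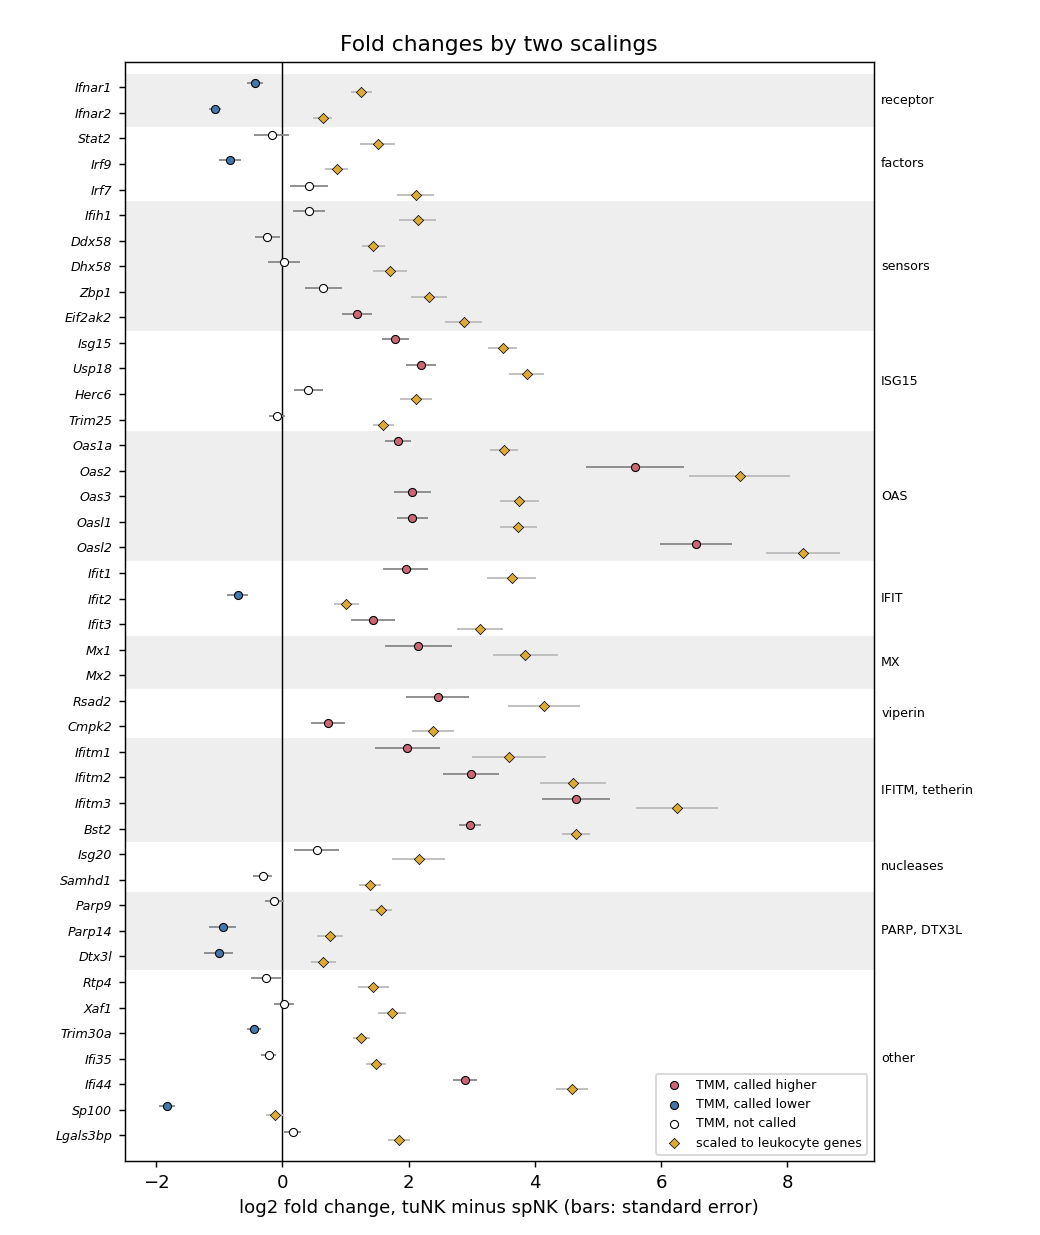
Log2 fold change of tuNK over spNK for each of the 41 tested genes (horizontal axis, bars are standard errors), grouped by role, with TMM scaling and with scaling to 32 leukocyte genes. All 5 OAS genes and all 4 of the IFITM and tetherin group lie to the right of 0 under both scalings, whereas the 2 receptor chains lie to the left of 0 under TMM and to the right under leukocyte scaling.

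Nearly all members were detected in both groups. With detection set at 10 counts or more in all 4 libraries of a group, 40 of 42 were detected in both, and none was found in 1 group with no detection in the other. The exceptions were Mx2 and Oas2. Mx2 had 0 counts in each spNK library and 96, 21, 5 and 18 counts in tuNK 1 to 4, too few to be tested. Against a floor of 3 counts per spNK library (a mean of 0.063 CPM) it was at least 14.1-fold higher in tuNK, or at least 5.69-fold without tuNK 1. Oas2 had 10, 0, 12 and 3 counts in spNK 1 to 4 and 403, 288, 114 and 241 in tuNK 1 to 4. At a minimum of 50 counts, 37 members were detected in both groups and 3 (Oas2, Oasl2 and Mx1) in tuNK alone. These floors cover counting error only.

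**Figure D2:**
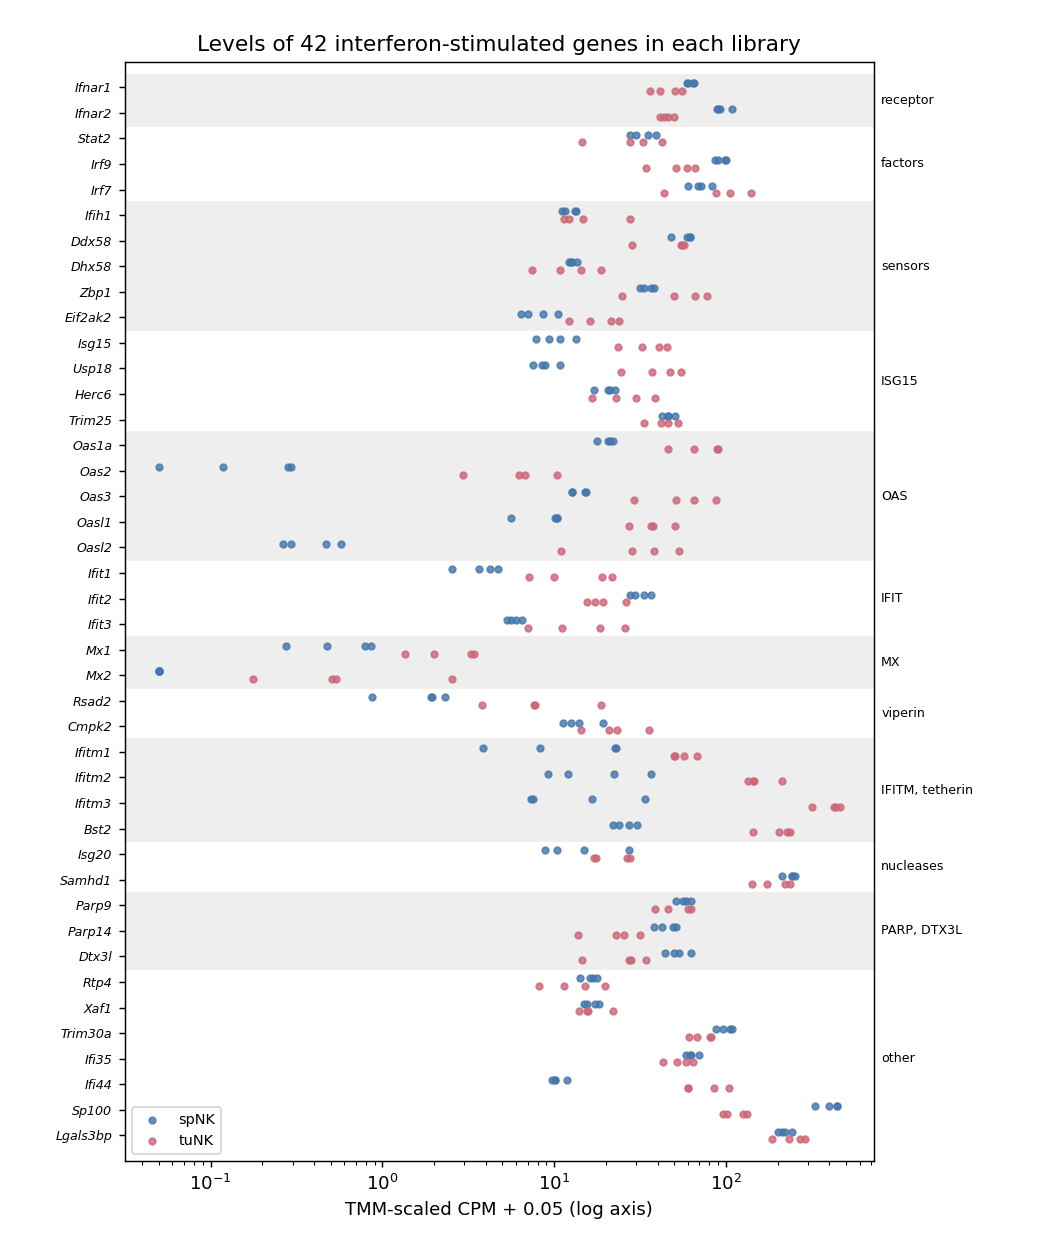
TMM-scaled CPM (log axis, 0.05 added so that 0 can be drawn) of each of the 42 genes, with 1 point for each of the 4 spNK and 4 tuNK libraries, ordered by role. Mx2, Oas2 and Oasl2 have spNK points near the left edge, and the tuNK points of most genes spread more widely than the spNK points.

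Promoter sequence is shown for 7 of the 10 members in which an ISRE stands before an annotated start, since this is the element through which ISGF3 acts. Oas3, Ifitm2 and Trim30a also hold one there and are not printed. RefSeq promoters (GRCm38.p6, 250 bases before to 50 after each start) were found for 33 of the 42 members, 39 promoters in all. The core, written as GAAA, any 2 bases and GAAA and searched on both strands, occurred in 15 of 39 (38.5%), in 14 members, against 3.44% of 32851 promoters of the same length. The STAT dimer motif (GAS), written as TTC, any 3 bases and GAA and the same on both strands, occurred in 10 of 39 (25.6%) against 8.3%. The members were chosen as interferon-stimulated genes, so a higher share of ISRE cores than in all promoters is no independent result. Some ISRE and GAS matches overlap, as in Ifitm3. By call, 10 of 15 members called higher with a promoter held an ISRE core, as did 1 of 7 called lower and 3 of 11 not called. The shares by call over all genes were not counted, so this split is a description only. Bst2, Isg15 and Oas1a hold overlapping cores within 22 bases or fewer, and Ifit1 and Ifit3 hold a pair with a gap. Below, each stretch is written 5′ to 3′ on the strand of its gene, with the core matches in capitals. A core on the opposite strand reads TTTC, any 2 bases and TTTC.
Isg15 (minus strand, chr4:156200855-156200916): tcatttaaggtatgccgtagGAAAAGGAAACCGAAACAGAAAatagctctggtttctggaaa
Oas1a (minus strand, chr5:120907526-120907565): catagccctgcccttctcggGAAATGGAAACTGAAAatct
Bst2 (minus strand, chr8:71537567-71537622): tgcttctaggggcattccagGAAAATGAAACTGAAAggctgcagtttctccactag
Ifit1 (plus strand, chr19:34640765-34640833): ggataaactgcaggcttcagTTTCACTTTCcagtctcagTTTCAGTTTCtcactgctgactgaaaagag
Ifit3 (plus strand, chr19:34583353-34583436): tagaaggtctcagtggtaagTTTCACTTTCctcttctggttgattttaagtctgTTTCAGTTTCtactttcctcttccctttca
Rsad2 (minus strand, chr12:26456543-26456592): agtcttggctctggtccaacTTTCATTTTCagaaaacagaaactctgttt
Stat2 (plus strand, chr10:128270256-128270305): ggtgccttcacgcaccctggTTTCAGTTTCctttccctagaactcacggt
The first 6 genes rose in tuNK, and Stat2 was not called. Trim30a was the member called lower with a core, and Ifitm3, Eif2ak2, Ifih1 and Ddx58 had theirs just after the start. A match to these letters is a description of the window and not a measured binding site.

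**Figure D3:**
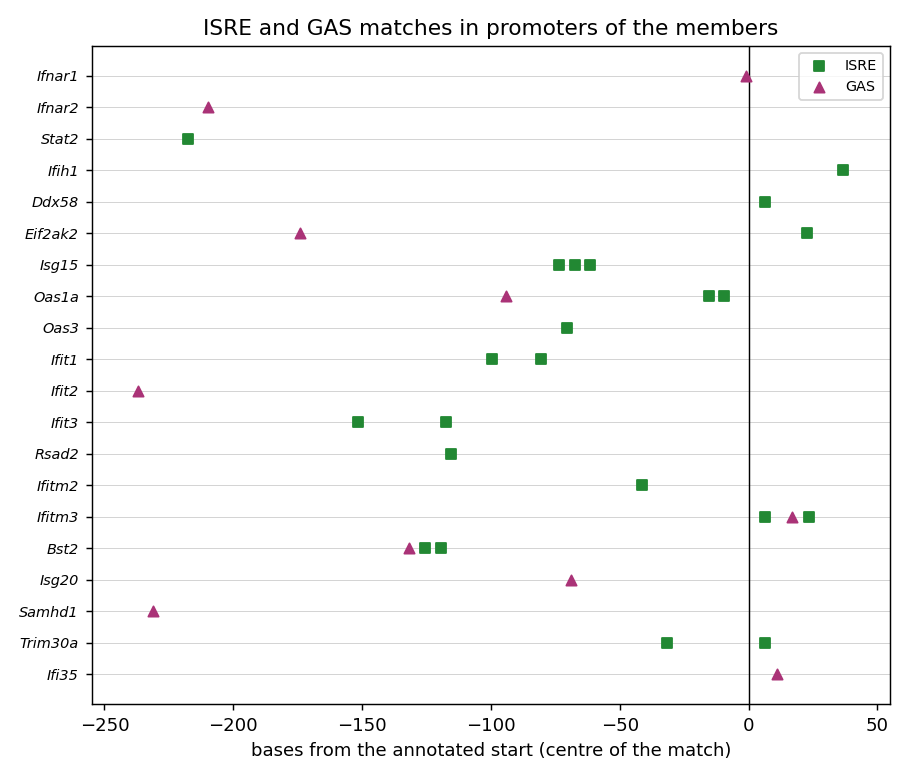
Positions of ISRE and GAS matches (horizontal axis, bases from the annotated start, centre of each match) in the promoters of the members that hold at least 1 match. In Isg15, Oas1a, Oas3, Ifit1, Ifit3, Rsad2, Ifitm2, Bst2 and Stat2 the ISRE matches lie to the left of the start.

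Both receptor chains were lower in tuNK. Ifnar1 (ENSMUSG00000022967, chromosome 16, 91485238 to 91507441), the chain that TYK2 binds, stood at 59.1, 65.1, 59.7 and 64.4 CPM in spNK 1 to 4 and at 55.5, 50.5, 35.9 and 41.2 CPM in tuNK 1 to 4. The groups did not overlap, though tuNK 1 came close to the lowest spNK library. Ifnar1 fell by 0.44 ± 0.13 on the log2 scale (edgeR adjusted p = 0.0113), which was not called against a fold of 1.5, and it was higher by 1.25 ± 0.17 after leukocyte scaling. Ifnar2 (ENSMUSG00000022971, chromosome 16, 91372783 to 91405589), the chain with the higher affinity for interferon, stood at 108, 92.8, 88.4 and 89.5 CPM in spNK and at 41.2, 43.3, 49.5 and 45.8 CPM in tuNK. All tuNK libraries were well below all spNK libraries, and unlike most members Ifnar2 was not lowest in tuNK 3. Ifnar2 fell by 1.07 ± 0.10 (edgeR adjusted p = 2.77e-06) and was higher by 0.64 ± 0.15 after leukocyte scaling. The genes lie 79.6 kb apart.

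Of the 3 transcription factor genes, only Irf9 was called. Irf9 (ENSMUSG00000002325, chromosome 14, 55603571 to 55610030), the DNA-binding subunit of ISGF3, stood at 98.5, 100.0, 85.7 and 89.5 CPM in spNK and at 65.9, 59.1, 34.0 and 51.4 CPM in tuNK. It fell by 0.83 ± 0.17 (edgeR adjusted p = 0.00157) without overlap, was not called against a fold of 1.5 (adjusted p = 0.0634), and was higher by 0.86 ± 0.18 after leukocyte scaling. Stat2 (ENSMUSG00000040033, chromosome 10, 128270559 to 128292849) stood at 27.4, 35.3, 29.9 and 39.1 CPM in spNK and at 42.4, 33.0, 14.4 and 27.4 CPM in tuNK. Here tuNK held both the highest and the lowest library, and the change was -0.17 ± 0.28 (edgeR adjusted p = 0.605; leukocyte-scaled 1.51). Irf7 (ENSMUSG00000025498, chromosome 7, 141262706 to 141266481), which amplifies interferon-α production, stood at 82.4, 71.1, 68.3 and 59.8 CPM in spNK and at 140.0, 106, 43.3 and 87.3 CPM in tuNK. Its tuNK libraries lay above all of spNK except tuNK 3, which lay below all of it. The change was 0.42 ± 0.30 (edgeR adjusted p = 0.241), and without tuNK 3 it was called higher at 0.65 (adjusted p = 0.00751).

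Among the 5 sensors of foreign nucleic acid, 1 was called. Eif2ak2 (ENSMUSG00000024079, chromosome 17, 78852564 to 78882573), which encodes the RNA-activated kinase PKR, stood at 8.60, 7.01, 10.5 and 6.34 CPM in spNK and at 23.7, 21.5, 16.2 and 12.1 CPM in tuNK. All 4 tuNK libraries were above all 4 of spNK. It rose by 1.18 ± 0.24 (edgeR adjusted p = 0.00105), but in the deposited length-scaled values (TPM) it stood at 4.05 ± 1.91 in spNK and 4.63 ± 1.90 in tuNK (SD, n = 4). On log2(TPM + 1) the change was 0.17 and was not called (limma-trend adjusted p = 0.64). The others were Ifih1 (MDA5), Ddx58 (RIG-I), Dhx58 (LGP2) and Zbp1, a sensor of Z-form nucleic acid. Their changes ran from -0.24 for Ddx58 to 0.65 for Zbp1 and their groups overlapped. Without tuNK 3, Zbp1 was called higher (0.87, edgeR adjusted p = 0.000726).

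In the ISG15 system, in which a ubiquitin-like protein is attached to other proteins, 2 of 4 genes rose. Isg15 (ENSMUSG00000035692, chromosome 4, 156199424 to 156200818), whose promoter holds 3 overlapping ISRE cores, stood at 13.3, 9.31, 7.81 and 10.7 CPM in spNK and at 45.2, 40.5, 23.5 and 32.6 CPM in tuNK. Usp18 (ENSMUSG00000030107, chromosome 6, 121245906 to 121270917), the protease that removes ISG15 and restrains IFNAR2 signalling, stood at 7.44, 8.78, 10.8 and 8.45 CPM in spNK and at 54.4, 47.4, 24.4 and 37.0 CPM in tuNK. In both genes all tuNK libraries were above the highest spNK library, and tuNK 1 was highest and tuNK 3 lowest. Isg15 rose by 1.79 ± 0.22 (edgeR adjusted p = 3.98e-05) and Usp18 by 2.20 ± 0.24 (edgeR adjusted p = 1.37e-05). Herc6, the mouse ISG15 ligase, and Trim25, a ubiquitin ligase of the RIG-I pathway, were not called, at 0.41 ± 0.23 and -0.09 ± 0.13 (leukocyte-scaled 2.12 and 1.60). Herc6 was called higher without tuNK 3 (0.58, edgeR adjusted p = 0.0192).

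All 5 OAS family genes among the members rose. These encode synthetases of 2′-5′ oligoadenylate, which activates RNase L, and the related OASL proteins. Oasl2 (ENSMUSG00000029561, chromosome 5, 114896936 to 114912234) stood at 0.419, 0.213, 0.245 and 0.521 CPM in spNK and at 53.5, 38.0, 10.9 and 28.5 CPM in tuNK. Even tuNK 3, the lowest of its group, was far above every spNK library, and the means differed 93.6-fold (0.349 ± 0.146 and 32.7 ± 17.8 CPM, SD, n = 4). Its log2 fold change was 6.56 ± 0.57 (edgeR adjusted p = 6.91e-06), the largest of all members tested. Its neighbour Oasl1, 11.0 kb away, was already at 9.10 ± 2.35 CPM in spNK and rose by 2.06 ± 0.24.

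Oas2 (ENSMUSG00000032690, chromosome 5, 120730333 to 120749853) stood at 0.233, 0, 0.245 and 0.0679 CPM in spNK and at 10.4, 6.71, 2.90 and 6.15 CPM in tuNK, a change of 5.59 ± 0.78 (edgeR adjusted p = 0.000103) without overlap. Oas3 (ENSMUSG00000032661, chromosome 5, 120753098 to 120777661), which lies 3.2 kb from Oas2, stood at 12.7, 15.2, 15.1 and 12.7 CPM in spNK and at 87.4, 65.0, 29.2 and 50.8 CPM in tuNK, a change of 2.06 ± 0.29 (edgeR adjusted p = 0.000136). Each tuNK library exceeded each spNK library, with tuNK 1 highest and tuNK 3 lowest for both. Oas1a rose by 1.83 ± 0.20, but 52.9% of its 60-base stretches are also found in Oas1g, between which reads could be exchanged. The sum of Oas1a and Oas1g was 20.4 ± 1.98 CPM for spNK against 97.6 ± 28.2 CPM for tuNK (SD, n = 4). Outside the members, Oas1c fell by 1.48 ± 0.30 (edgeR adjusted p = 0.00102) without overlap. After leukocyte scaling Oas1c was at 0.24 and not called. Oas1b was not called (0.34 ± 0.33, edgeR adjusted p = 0.383).

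The IFIT genes, which encode proteins that bind viral RNA and lie together on chromosome 19, were split. Ifit1 (ENSMUSG00000034459, 34640871 to 34650009) stood at 4.19, 2.50, 3.59 and 4.64 CPM in spNK and at 21.6, 18.9, 7.11 and 9.92 CPM in tuNK. Ifit3 (ENSMUSG00000074896, 34583531 to 34588731) stood at 5.93, 6.44, 5.24 and 5.53 CPM in spNK and at 25.9, 18.4, 6.99 and 11.0 CPM in tuNK. The groups did not overlap in either gene, although tuNK 3 was close to spNK in Ifit3. Ifit1 rose by 1.95 ± 0.36 (edgeR adjusted p = 0.000651) and Ifit3 by 1.43 ± 0.35 (edgeR adjusted p = 0.00398). Ifit3 shares 47.0% of its 60-base stretches with Ifit3b, and their sum was 6.59 ± 0.637 CPM for spNK against 20.2 ± 11.0 CPM for tuNK. Ifit2 (ENSMUSG00000045932, 34550694 to 34576419), 7.1 kb from Ifit3, stood at 33.3, 36.7, 29.6 and 27.6 CPM in spNK and at 26.2, 19.2, 15.5 and 17.2 CPM in tuNK. All tuNK libraries were lower, and Ifit2 fell by 0.71 ± 0.17 (edgeR adjusted p = 0.00328), a call lost against a fold of 1.5 and turned to 1.01 ± 0.20 higher by leukocyte scaling. Neither of its RefSeq promoters held the ISRE core in these windows.

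Mx1 (ENSMUSG00000000386, chromosome 16, 97447035 to 97462907), a dynamin-like GTPase that blocks influenza virus and is defective in most laboratory strains, stood at 0.814, 0.426, 0.224 and 0.747 CPM in spNK and at 3.21, 3.38, 1.30 and 1.94 CPM in tuNK. It remained among the least abundant members in both groups, though without overlap. Mx1 rose by 2.15 ± 0.53 (edgeR adjusted p = 0.00407), but was not called on log2(TPM + 1) (0.57, limma-trend adjusted p = 0.0549).

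Rsad2 and Cmpk2, 12.8 kb apart on chromosome 12, encode viperin, which makes a chain-terminating nucleotide, and the kinase that supplies its substrate. Rsad2 (ENSMUSG00000020641, 26442746 to 26456452) stood at 1.86, 0.816, 2.26 and 1.90 CPM in spNK and at 18.7, 7.73, 3.73 and 7.55 CPM in tuNK. All tuNK libraries exceeded spNK, with tuNK 1 far above the others. Rsad2 rose by 2.46 ± 0.50 (edgeR adjusted p = 0.00124). Cmpk2 was called higher at 0.72 ± 0.27 (edgeR adjusted p = 0.0336) although its groups overlapped. That call was lost when any of spNK 1, 2 or 4 or tuNK 1 or 2 was left out, with values from 0.44 (without tuNK 1) to 0.72.

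The membrane-bound restriction factors were among the most abundant members of tuNK. Per length, the highest mean levels in tuNK were those of Ifitm3 (815 ± 187 TPM), Ifitm2 (349 ± 63.9 TPM) and Bst2 (343 ± 95.8 TPM, SD, n = 4), of which the levels of Ifitm2 and Bst2 do not differ beyond their spread. In spNK the highest were Sp100 (283 ± 35.7 TPM), Lgals3bp (122 ± 12.2 TPM) and Samhd1 (112 ± 9.27 TPM), and the levels of Lgals3bp and Samhd1 lie within their spread of each other. Ifitm3 (ENSMUSG00000025492, chromosome 7, 141009586 to 141010770), which hinders fusion of viruses in endosomes, stood at 7.23, 7.47, 33.7 and 16.6 CPM in spNK and at 458, 435, 315 and 426 CPM in tuNK. The tuNK libraries were all far above spNK, where spNK 3 was highest. Ifitm3 rose by 4.65 ± 0.54 (edgeR adjusted p = 8.76e-05), or 5.28 without spNK 3.

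Ifitm2 (ENSMUSG00000060591, chromosome 7, 140954837 to 140955987) stood at 12, 9.12, 36.7 and 22.2 CPM in spNK and at 135, 146, 143 and 212 CPM in tuNK, a rise of 2.99 ± 0.44 (edgeR adjusted p = 0.000318). It shares 46.0% of its 60-base stretches with other genes, so its counts are less certain. Ifitm1 rose by 1.98 ± 0.51 and, like Ifitm2 and Ifitm3, was above its group's other libraries in spNK 3 and spNK 4. Macrophage and monocyte markers also summed highest in spNK 3, to 269 CPM against 44.1 to 75.5 CPM in the other spNK libraries. Their part in the IFITM levels was not tested. Bst2 (ENSMUSG00000046718, chromosome 8, 71534255 to 71537456) encodes tetherin, which holds budding virions at the cell surface. It stood at 27.1, 23.9, 30.2 and 21.9 CPM in spNK and at 237, 226, 144 and 203 CPM in tuNK. The groups lay far apart, with tuNK 3 lowest of its group, and Bst2 rose by 2.97 ± 0.17 (edgeR adjusted p = 1.42e-07).

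Plasmacytoid dendritic cells also express Bst2. The 7 markers of that cell type summed to between 58.5 and 65.9 CPM in spNK and between 43.2 and 53.6 CPM in tuNK. Of these, Siglech, Ccr9, Klk1 and Cd300c were at 0 in all tuNK libraries, whereas Tcf4, Runx2 and Cox6a2 averaged 26.9, 20.0 and 1.44 CPM there. The 10 macrophage and monocyte markers summed to between 59.5 and 76.1 CPM in tuNK, of which Cd14 made up 60.3 CPM on average (0.28 CPM in spNK) and Cd68 7.23 CPM. Another 7 of the 10 averaged under 1 CPM in tuNK, among them the defining markers Csf1r (0.0835 CPM) and Adgre1 (0.0702 CPM). The mesenchymal marker sum averaged 3727 CPM in tuNK, of which Col1a2 made up 1860 CPM. Postn, Lum, Timp3 and Col5a2 averaged only 1.23 to 2.61 CPM there. In spNK, Thy1 made up 101 CPM of the mean sum of 122 CPM. Fibroblasts and carcinoma cells can express most of the 42 genes. The part of those cells in any rise described here was not tested.

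The nucleases were not called. Isg20, an exonuclease of RNA, changed by 0.54 ± 0.35 (edgeR adjusted p = 0.196) and was called higher without spNK 3 (0.97, adjusted p = 0.00448). Samhd1, which depletes deoxynucleotides, changed by -0.31 ± 0.15 (edgeR adjusted p = 0.0853; leukocyte-scaled 1.39) and was called lower in 7 of 20 alternatives. These include library size alone (-0.46, adjusted p = 0.0274), log2(TPM + 1) with limma-trend (-0.64, adjusted p = 0.0145) and leaving out tuNK 1 (-0.43, adjusted p = 0.021).

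Of the ADP-ribosylation genes, Dtx3l (ENSMUSG00000049502, chromosome 16, 35926511 to 35939151), the ubiquitin ligase that partners PARP9, stood at 53.2, 49.8, 44.0 and 62.3 CPM in spNK and at 27.8, 34.3, 14.4 and 27.1 CPM in tuNK. Parp14 (ENSMUSG00000034422, chromosome 16, 35832874 to 35871544), an ADP-ribosyltransferase, stood at 49.1, 50.8, 38.2 and 42.3 CPM in spNK and at 31.5, 22.8, 13.7 and 25.6 CPM in tuNK. All tuNK libraries lay below all spNK libraries in both genes, and tuNK 3 was lowest. Dtx3l fell by 1.01 ± 0.23 (edgeR adjusted p = 0.00262) and Parp14 by 0.95 ± 0.22 (edgeR adjusted p = 0.00288), whereas after leukocyte scaling they were higher by 0.65 and 0.75. Parp9, which overlaps Dtx3l by its annotation, was not called (-0.13 ± 0.15, edgeR adjusted p = 0.444; leukocyte-scaled 1.56). The difference between Parp9 and Dtx3l was not tested.

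Of the other 7 genes, 1 rose and 2 fell. Ifi44 (ENSMUSG00000028037, chromosome 3, 151730922 to 151749960), whose molecular role is less defined, stood at 9.65, 10, 11.9 and 10.1 CPM in spNK and at 104, 85.6, 60.3 and 59.9 CPM in tuNK. The spNK libraries were nearly equal and all tuNK libraries far above them, a rise of 2.90 ± 0.19 (edgeR adjusted p = 3.78e-07). Sp100 (ENSMUSG00000026222, chromosome 1, 85649988 to 85709998), a component of PML nuclear bodies, stood at 445, 442, 329 and 399 CPM in spNK and at 125, 132, 96.5 and 101 CPM in tuNK. It was the member with the largest fall, by 1.83 ± 0.13 (edgeR adjusted p = 7.05e-07), which was of the size of the fall of the leukocyte genes: leukocyte-scaled it was at -0.12 ± 0.14 and not called (adjusted p = 0.429). Trim30a (ENSMUSG00000030921, chromosome 7, 104409025 to 104465193), a TRIM protein that limits inflammatory signalling, stood at 108, 96.6, 87.3 and 105 CPM in spNK and at 80.8, 81.4, 60.8 and 68.0 CPM in tuNK. It fell by 0.45 ± 0.11 (edgeR adjusted p = 0.00464) without overlap, was not called against a fold of 1.5, and was higher by 1.25 after leukocyte scaling. Rtp4, Xaf1, Ifi35 and Lgals3bp were not called, with changes from -0.26 to 0.16 (leukocyte-scaled 1.44 to 1.85). Ifi35 was called lower without tuNK 1 (-0.32, edgeR adjusted p = 0.0427), with library size alone (-0.38, adjusted p = 0.0335) and on both log2 TPM scales (-0.47 each). Lgals3bp was called higher without tuNK 3 (0.26, edgeR adjusted p = 0.0494).

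The members called higher had low levels in spNK. Their mean spNK level ran from 0.136 to 25.8 CPM with a median of 9.69. For the 8 called lower it ran from 31.8 to 404 CPM with a median of 77.8, so the ranges in CPM did not overlap. In TPM, which allow for gene length, they did overlap: 0.0447 to 52.3 (median 4.98) for those called higher and 7.27 to 283 (median 25.2) for those called lower. Those not called ran from 12.2 to 238 CPM. Over all genes tested the corresponding medians were 11.3 CPM for the higher, 31.3 CPM for the lower and 9.61 CPM for those not called. The spNK level is itself part of each fold change, so this is a description only.

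**Figure D4:**
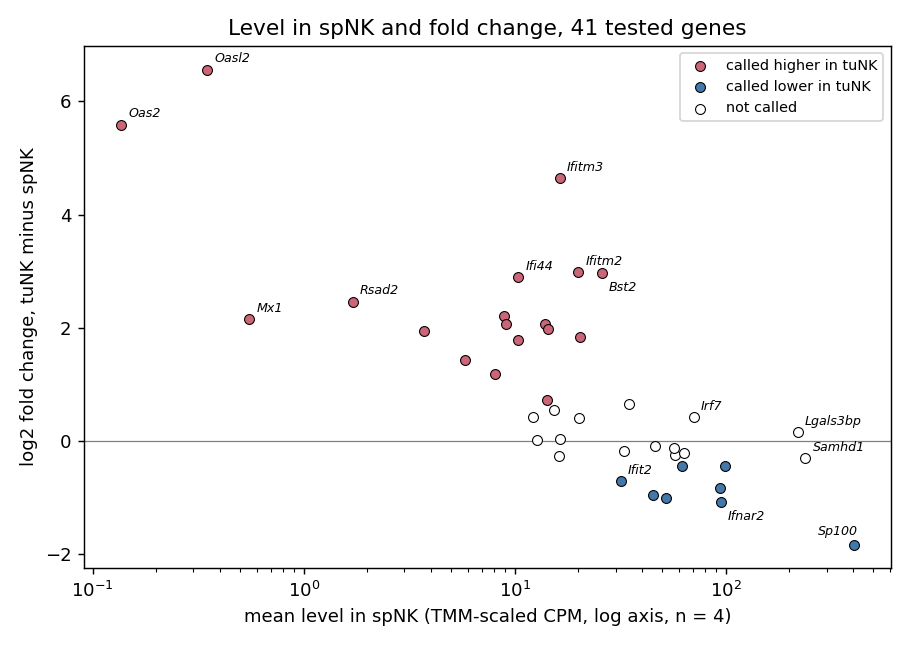
Mean spNK level (TMM-scaled CPM, log axis, n = 4) against log2 fold change of tuNK over spNK, 1 point for each of the 41 tested genes. Genes called higher lie at 25.8 CPM or less and genes called lower at 31.8 CPM or more.

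Within tuNK the members varied together between libraries. Of the 41 tested, 32 (78.0%) were highest in tuNK 1, against 31.0% of all genes tested, and 36 (87.8%) were lowest in tuNK 3, against 28.7%. The order tuNK 1, tuNK 2, tuNK 4, tuNK 3 from high to low was found in 27 members (65.9%) and in 7.18% of all genes. This order, with its highest and lowest library, was read from these same members, so their shares are a description only. The low level of tuNK 3 was not limited to genes called higher: it was lowest in 15 of 18 genes called higher, 7 of 8 called lower and 14 of 15 not called. The ratio of tuNK 1 to tuNK 3 had a median of 1.92 over the members, 1.0 over all genes and 1.04 over the leukocyte genes. It passed 2 in 17 members (41.5%) and in 7.13% of all genes. The mesenchymal marker sum was also highest in tuNK 1 (4843 CPM), but was 3262, 3220 and 3583 CPM in tuNK 2, 3 and 4, nearly equal in tuNK 2 and tuNK 3. NK marker sums were 3769, 5313, 4013 and 5114 CPM in tuNK 1 to 4, lowest in tuNK 1. The part of either in this order was not tested.

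Ifitm1 and Ifitm2, highest in tuNK 4, were among the exceptions to the order, as was Ifnar2, highest in tuNK 3. In spNK no library held most of the highest or lowest values over all members: each was highest in 10 or 11 of the 41 members and lowest in 8 to 15. Split by call, spNK 3 was highest in 9 and lowest in 3 of the 18 called higher. Of the 8 called lower, it was highest in 0 and lowest in 6. The median SD of log2(CPM + 0.1) over the members was 0.18 in spNK and 0.44 in tuNK, where all genes tested had 0.22 and 0.21. These members share their libraries and are not independent of each other.

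**Figure D5:**
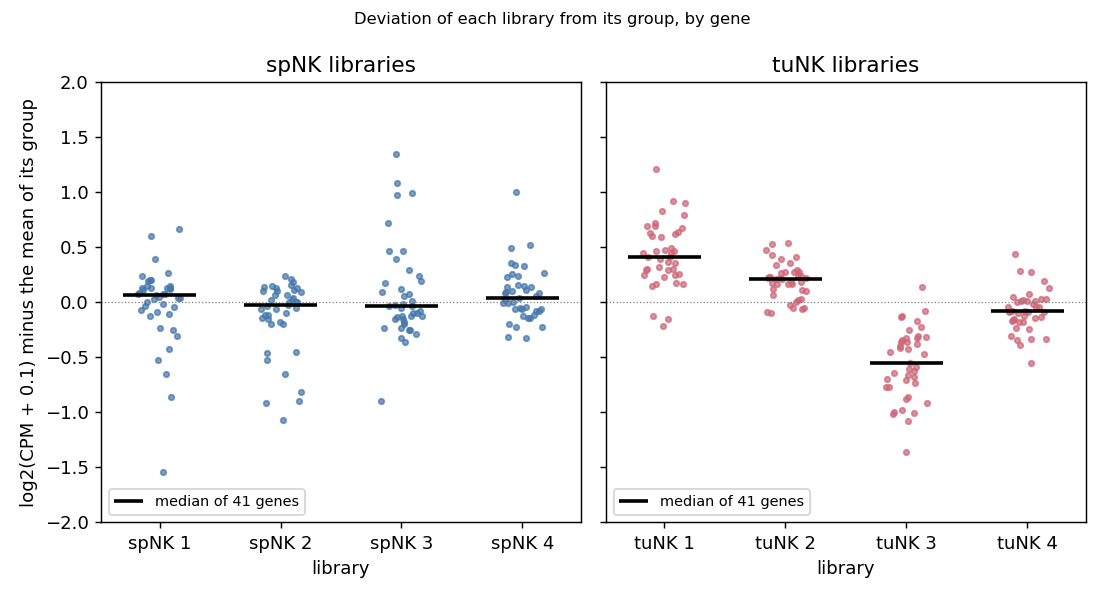
Deviation of each library's log2(CPM + 0.1) from the mean of its group (vertical axis) for the 41 tested genes, 1 point per gene, with the median as a bar. The medians are 0.41, 0.21, -0.55 and -0.08 in tuNK 1 to 4 and 0.07, -0.02, -0.03 and 0.03 in spNK 1 to 4.

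Other genes of the pathway were taken from lists of ligands, signalling components, inducers and further interferon-stimulated genes. No ligand gene was abundant enough to test: 17 of 18 reached 10 counts in no library, Ifnb1 (interferon-β, 0 counts in all 8) among them, and Ifnz reached at most 0.256 CPM. Of 11 receptor-proximal genes, 2 (18.2%) were called higher and 6 (54.5%) lower, where 35.6% and 34.0% of all genes were. Their median was -0.81 (leukocyte-scaled 0.89), beside 0.0187 (1.7165) for all genes. Jak1 and Tyk2, the receptor kinases, fell by 2.21 ± 0.14 and 2.19 ± 0.11, and were still called lower after leukocyte scaling, at -0.50 each. Jak1 stood at 1257, 1278, 930.0 and 1057 CPM in spNK and at 264, 281, 196 and 240.0 CPM in tuNK, without overlap. The factors Irf2 and Irf1 fell by 1.45 ± 0.12 and 1.26 ± 0.31, but were at 0.25 and 0.45 when scaled to the leukocyte genes.

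Of the genes for inhibitors of signalling, Socs1 rose by 1.67 ± 0.15 (edgeR adjusted p = 3.61e-06) and Socs3 by 4.11 ± 0.41 (edgeR adjusted p = 2.94e-05). Cish, of the same family, was not called (0.64 ± 0.44, edgeR adjusted p = 0.221). The phosphatase genes Ptpn1 and Ptpn2 fell by 0.81 ± 0.09 and 0.86 ± 0.12, but leukocyte-scaled were at 0.89 and 0.85. Socs3, induced by many cytokines besides interferon, stood at 8.26, 7.54, 9.04 and 10.2 CPM in spNK and at 269, 158, 71.5 and 107 CPM in tuNK.

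Of 16 genes that lead to interferon induction, 3 (18.8%) were called higher and 8 (50%) lower, against 35.6% and 34.0% of all genes, with a median of -0.35 (leukocyte-scaled 1.32). Tlr3, the endosomal receptor for double-stranded RNA, rose by 3.35 ± 0.31, and Mb21d1 (cGAS) and the adaptor Mavs by 0.50 ± 0.13 and 0.48 ± 0.14. The calls of Mb21d1 and Mavs were lost with library size alone and on log2 TPM. Tlr9 changed by -2.66 ± 0.81 at about 1 CPM in spNK and was not called after leukocyte scaling (-0.98). Trex1, a DNA exonuclease, fell by 1.52 ± 0.17 and Ikbke, a kinase, by 0.93 ± 0.20, while leukocyte-scaled they were at 0.18 and 0.78. Trex1 shares most of its 60-base stretches with Atrip and is uncertain. Tmem173 (STING) fell by 0.53 ± 0.10 and Irf3 by 0.35 ± 0.09, and leukocyte-scaled both were higher, at 1.17 and 1.34.

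Of 62 further interferon-stimulated genes, 60 were tested, 19 (31.7%) were called higher and 24 (40.0%) lower, with a median of 0.04 (leukocyte-scaled 1.74). These are near the values of all genes (35.6%, 34.0%, 0.0187 and 1.7165). The largest rises were those of Oas1g (7.56 ± 0.77), Trim30d (5.87 ± 0.94) and Phf11d (4.82 ± 0.56). The first of these was 9.12 without spNK 3 and the second 8.34 without spNK 1, since their spNK levels rest on few counts: Oas1g had 0, 0, 19 and 6 and Trim30d 14, 2, 0 and 0 in spNK 1 to 4. Oas1g stood at 0, 0, 0.388 and 0.136 CPM in spNK and at 38.0, 23.2, 17.5 and 22.0 CPM in tuNK. The largest falls were those of Trim12c (1.83 ± 0.16), Epsti1 (1.82 ± 0.16) and Ifit1bl1 (1.77 ± 0.39), and none of the 3 was called after leukocyte scaling. In these 60 genes too, tuNK 1 was most often highest (35, 58.3%) and tuNK 3 most often lowest (41, 68.3%).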

How the data were processed

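Gene levels were measured in 8 libraries of polyadenylated RNA, 4 titled spNK and 4 titled tuNK, prepared from 20 ng of RNA by a directional method and sequenced as pairs of 60-base reads, per the labels' protocols. Per the submitters' processing notes, FastQC 0.11.9, STAR and Salmon were used with GRCm38 (mm10). Neither the release of STAR, Salmon or the annotation nor how strand was handled is stated in the labels. The authors deposited estimated counts (expected counts per gene, not normalized) and, in a second deposited table, TPM (length-scaled values).

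Estimated counts were rounded to whole numbers. Genes were kept with filterByExpr, scaled with TMM and tested with the edgeR 4.0.16 quasi-likelihood test (R 4.3.3, robust settings), adjusted over the 14006 genes tested. With totals of 38745733 to 53886933 counts, 10 counts correspond to a fraction of 1 CPM, and most values are limited by the spread between libraries rather than by counting. Standard errors were derived from the F statistic. Leukocyte scaling set the summed level of 32 genes expressed across leukocytes equal between libraries. TPM were used to compare genes and, as log2(TPM + 1) or log2(TPM + 0.1), in limma-trend 3.58.1. Gene positions are those of GENCODE M21 on GRCm38, and promoters those of RefSeq on GRCm38.p6. The share of 60-base stretches found in other genes was counted over the transcripts of M21. The edgeR test was first tried on simulated counts in which few genes changed. Most genes were called in these data, so that trial could not check the scaling for them.

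The members, the lists and the tests were chosen with earlier results of these data known. Values per library are given for receptor chains and transcription factors, and in each other role for up to 3 members with the largest change among those called without overlap and with at least 1 CPM in the higher group. Mx2, Cish, Ptpn1, Ptpn2, Oas1b, Oas1c and the library values of Socs3 and Oas1g were added after their values were seen. In the pathway lists, Jak1, Tyk2, Irf1, Irf3, Socs1, Tmem173, Mb21d1 and Ifnb1 and the 3 largest rises and falls among called genes are named, and 1 gene that met the rule is not reported here. Alternatives were DESeq2 size factors, upper quartile scaling, library size alone, leukocyte scaling, no filter, a filter of 1 CPM in 4 libraries, the DESeq2 1.42.0 test, limma-trend on both log2 TPM scales, a test against a fold of 1.5, the replicate number as a block and each library left out. Leaving out spNK 3 and tuNK 1 together was added after seeing the data.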

Additional observations from a re-analysis of the deposited data

Results flagged for a closer look

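In 83 groups of 4 libraries examined, 4 held a library far from the other 3 of its group by Dixon's criterion, which chance alone meets in about 1 group in 20. Ddx58, which encodes RIG-I, stood at 28.2 CPM in tuNK 3, with the other tuNK libraries between 54.5 and 56.8 CPM. Oasl1 stood at 5.58 CPM in spNK 1 and between 10 and 10.4 CPM in the other spNK libraries. Mx2 stood at 2.48 CPM in tuNK 1 and at 0.489 CPM or less in the other tuNK libraries. Ifitm2 stood at 212 CPM in tuNK 4 and between 135 and 146 CPM in the others.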

How the results depend on the processing

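Leukocyte scaling turned the direction of 14 of 41 members, and the other scalings that of 0 to 2. Leukocyte scaling gave 40 members higher, 0 lower and a median log2 fold change of 2.14, while the 18 members called higher with TMM stayed higher. It turned Ifnar1 to 1.25, Ifnar2 to 0.64, Stat2 to 1.51, Irf9 to 0.86, Ddx58 to 1.44, Trim25 to 1.60, Ifit2 to 1.01, Samhd1 to 1.39, Parp9 to 1.56, Parp14 to 0.75, Dtx3l to 0.65, Rtp4 to 1.44, Trim30a to 1.25 and Ifi35 to 1.48. Among pathway genes it turned Irf1 to 0.45, Irf3 to 1.34, Tmem173 to 1.17, Irf2 to 0.25, Trex1 to 0.18 and Ikbke to 0.78. The sign of 4 uncalled genes near 0 also changed elsewhere. With upper quartile scaling Dhx58 was at -0.04 and Xaf1 at -0.02. With library size alone Dhx58 and Xaf1 were at -0.14 and -0.13. On log2(TPM + 1) and log2(TPM + 0.1) Dhx58 was at -0.30 and -0.36. Without spNK 3 and tuNK 1, chosen after seeing the data, Dhx58 and Xaf1 were at -0.20 and -0.16. With 1 library left out, Dhx58 ranged from -0.24 (without tuNK 1) to 0.20, Xaf1 from -0.14 (without tuNK 1) to 0.11, Stat2 from -0.41 to 0.05 and Trim25 from -0.21 to 0.01. By its construction leukocyte scaling moved fold changes upwards, with the median of all genes tested going from 0.0187 to 1.7165. The cause of the other sign changes was not tested.

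Against a fold of 1.5, 6378 genes in all and 4 members lower were called, the construction of that test being stricter. With 1 library left out, 9451 to 9907 genes were called, with 17 to 23 members higher, 8 to 10 lower, a median of 0.18 to 0.64, and 40 members detected in both groups each time. Without spNK 3 and tuNK 1 together, 9657 genes, 19 members higher and 10 lower were called, with a median of 0.14. On either log2 TPM scale 13 members were higher and 10 lower, with Oas2 and Rsad2 among those left out by the filter on low TPM.

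Replicate numbers are shared between groups. Deviations of same-numbered libraries correlated at -0.008, 0.037, 0.022 and 0.022, and those of the other pairs at -0.055 to 0.031. With 4 libraries per group, such values cannot tell whether same-numbered libraries share a mouse or a day. With the replicate number as a block, 9555 genes, 17 members higher and 9 lower were called, with a median of 0.35 and Dhx58 at -0.06. Cmpk2 lost its call (0.68, adjusted p = 0.107) and Samhd1 gained one (-0.33, adjusted p = 0.0241) in edgeR under the block. Counts were few for Mx2, the ligand genes and the spNK levels of Oas2, Oas1g and Trim30d, with libraries at or under the floor of 3 counts. Whether these transcripts were absent or missed at this depth was not tested.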

Other observations

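Of the 60 further interferon-stimulated genes tested, 19 were called higher, 24 lower and 17 not called, with a median log2 fold change of 0.04. The genes below were picked from those called higher, with their levels already known. They therefore do not stand for that list. Ly6e, a membrane protein that restricts coronaviruses, stood at 52.0, 53.9, 153 and 93.7 CPM in spNK 1 to 4 and at 841, 789, 820.0 and 846 CPM in tuNK 1 to 4. It was about equal in all tuNK libraries and rose by 3.23 on the log2 scale (edgeR adjusted p = 3.85e-05). Parp12, an ADP-ribosyltransferase, stood at 3.37, 2.63, 5.88 and 4.55 CPM in spNK and at 75.8, 59.9, 28.1 and 46.7 CPM in tuNK. It rose by 3.68 (edgeR adjusted p = 1.19e-05) and followed the order of the members, highest in tuNK 1 and lowest in tuNK 3. Ube2l6, the conjugating enzyme for ISG15, stood at 18.2, 18.7, 25.4 and 22.5 CPM in spNK and at 106, 86.5, 51.8 and 68.8 CPM in tuNK, a rise of 1.88 (edgeR adjusted p = 2.27e-05) with the same order. Ifi27l2a and Ifi204, a DNA sensor of the PYHIN family, rose by 3.54 and 3.46.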
